A study of Mus musculus with 6 samples.

Results

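The genes described here encode proteins of the costamere and of the neighbouring Xin-repeat and Nrap scaffolds of heart muscle, and were chosen by name: Xirp1, Xirp2, Nrap, Vcl, Tln1, Tln2, Itgb1, Itga7, Dmd and Utrn. Probe sets of the array annotated to a single gene covered 9 of the 10 genes with 24 probe sets, among 18193 genes and 45037 probe sets in all. Xirp2 had no probe set under its name and was not analysed here. The main probe set of a gene is the one that was brightest on average across all 6 arrays. RNA of whole hearts from mice 3 months old was hybridised to 3 arrays of Des-/- mice, which lack desmin, and 3 arrays of TNFαDes-/- mice, which lack desmin as well and overexpress the cytokine TNF-α in the heart. Both groups thus carry the desmin deletion, and no wild-type heart was part of the comparison. The Des-/- mice were of strain 129SV and the TNFαDes-/- mice of a mixed 129SV/C57 background, so transgene and strain cannot be told apart. The sources used here do not name the promoter of the transgene. The labels state that RNA of 3 hearts was pooled for each genotype, and no source states whether each array of a genotype holds 1 animal. The p-values therefore measure only the spread between arrays, which may be technical.

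Costameres are protein assemblies that tie the Z-discs of the outermost myofibrils to the cell membrane and to the matrix outside. They hold a pair of membrane complexes: integrins, which bind laminin and connect through talin and vinculin to actin, and the dystrophin complex, which connects actin to laminin through dystroglycan. Desmin filaments reach these sites from the Z-discs. In heart muscle the same proteins also stand at the intercalated disc, where the Xin-repeat proteins and Nrap bind actin near the adherens junction.

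Sequences upstream of the start sites are shown for some of the matches to sites of muscle transcription factors. They are given because Vcl is 1 of the members past the test and Srf, which encodes the serum response factor, is among the partner genes described below. RefSeq promoters (GRCm38.p6, 250 bases before to 50 after the start) were held for 7 of the 10 members, with 8 promoters in all. Xirp1, Itga7 and Tln2 had no such promoter and were not searched. A CArG box, the site of serum response factor, occurred on either strand in 2 of these 8 and in 1.63% of all 32851 promoters. A MEF2 box occurred in 2 of the 8 and in 3.19% of all promoters. The MCAT element CATTCC occurred in 2 of the 8 and in 14.66% of all, and a kappa B site, the binding site of NF-κB, in 1 of the 8 and in 8.46%. That kappa B match lies in Vcl, and its first bases overlap the end of the CArG box. The stretches run 5′ to 3′ along the gene, with the matched letters in capitals. A match describes the letters only and was not tested as a binding site. The MEF2 box of Dmd and the MCAT elements of Vcl and Itgb1 are not shown.
Vcl CArG box, chr14:20929151-20929200, plus strand: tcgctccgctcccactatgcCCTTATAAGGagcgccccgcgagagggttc
Dmd CArG box, chrX:82948752-82948801, plus strand: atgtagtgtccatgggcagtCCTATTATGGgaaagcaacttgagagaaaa
Srf CArG box, chr17:46556215-46556264, minus strand: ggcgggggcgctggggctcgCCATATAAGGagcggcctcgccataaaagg
Srf second CArG box, chr17:46556195-46556244, minus strand: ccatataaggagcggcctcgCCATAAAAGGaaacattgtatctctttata
Xirp2 MEF2 box, chr2:67445908-67445957, plus strand: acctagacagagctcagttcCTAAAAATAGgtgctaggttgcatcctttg

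Array-wide properties bear on every value that follows. Values are log2 expression as deposited, and a log2 change is the TNFαDes-/- mean minus the Des-/- mean. The 99th percentile of an array was 12.27 on Des-/- replicate 1, 11.69 to 11.75 on the other Des-/- arrays and 12.26 to 12.31 on the TNFαDes-/- arrays, so the arrays did not share 1 scale at the bright end, where the members lie. Of 18193 genes, 21.3% passed the test (limma with Benjamini-Hochberg adjustment, threshold 0.05), 15.2% higher and 6.05% lower in TNFαDes-/- hearts. Of those past the test 71.5% were higher as deposited, and 53.6% after quantile normalization of the arrays, which called 22.5% of genes. Among the 2780 genes within the members' range of mean level, 37.9% passed, and the median log2 change was 0.27 as deposited and 0.02 after quantile normalization. The engineered genes gave no check of the labels. The single Tnf probe set changed by 0.07 ± 0.12 (SE; limma adjusted p = 0.766 over probe sets), and the brighter Des probe set read above the array medians in these desmin-null hearts, at means of 8.40 in Des-/- and 8.79 in TNFαDes-/-, a rise of 0.39 ± 0.10 (limma adjusted p = 0.0283 over probe sets). The other Des probe set stood at means of 5.13 and 4.72, near or below the array medians of 5.02 to 5.08, and did not pass.

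The rise that held across every setting was in Xirp1, which encodes the actin-binding Xin protein of the intercalated disc, and the main probe sets of the integrin, talin and dystrophin genes did not pass the test as deposited. Of the 9 genes 2 passed the test, Xirp1 (1.62-fold higher) and Vcl (1.53-fold higher), and 0 were lower, which is near the 21.3% of all genes and below the 37.9% of genes of similar level. The median change of the 9 genes was 0.11, against 0.04 for all genes and 0.27 for genes of similar level. The scaling of arrays decided which other members were called. After quantile normalization 4 of 9 passed, with Xirp1 higher and Tln2, Itgb1 and Itga7 lower, and the median was -0.20. Without Des-/- replicate 1, also 4 of 9 passed, with Xirp1, Vcl, Tln1 and Utrn all higher.

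**Figure D1:**
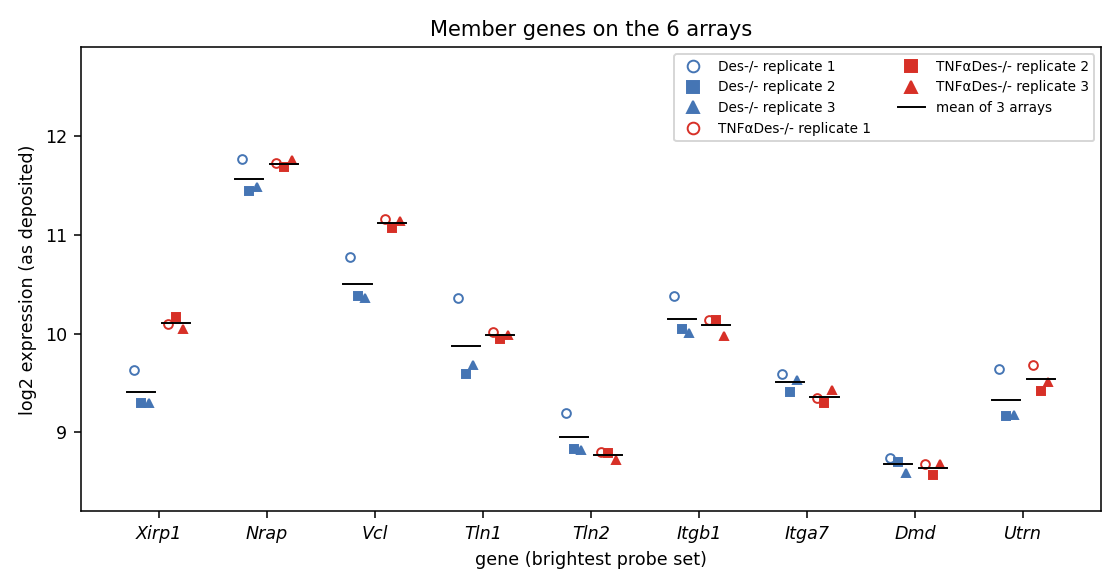
Log2 expression as deposited (vertical axis) of the main probe set of each of the 9 measured genes (horizontal axis) on the 3 Des-/- arrays (blue) and 3 TNFαDes-/- arrays (red), with the mean of each group as a line; open circles are replicate 1, squares replicate 2 and triangles replicate 3. Xirp1 and Vcl lie higher on every TNFαDes-/- array than on any Des-/- array, and Des-/- replicate 1 is the highest of its group for each gene.

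Xirp1 stood at 9.63, 9.30 and 9.30 on the Des-/- arrays and at 10.10, 10.17 and 10.04 on the TNFαDes-/- arrays, all on its single probe set 1419220_at. The lowest TNFαDes-/- array lay above the highest Des-/- array, which was replicate 1. The log2 change was 0.69 ± 0.12 (SE; limma adjusted p = 0.00442, 95% interval 0.43 to 0.96). It passed under all 15 alternative settings tried, with values from 0.44 after quantile normalization to 0.80 without Des-/- replicate 1. Nrap encodes a LIM and nebulin-repeat protein that serves as a scaffold where myofibrils form and end. It read 11.77, 11.45 and 11.48 on Des-/- and 11.73, 11.68 and 11.75 on TNFαDes-/- arrays. The groups overlapped through Des-/- replicate 1, and the change of 0.16 ± 0.11 did not pass (limma adjusted p = 0.379, 95% interval -0.10 to 0.41), with a turn to -0.20 after quantile normalization.

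Vcl encodes vinculin, the adaptor that binds talin and actin at adhesion sites. Its main probe set 1416156_at read 10.78, 10.38 and 10.37 on Des-/- and 11.16, 11.07 and 11.14 on TNFαDes-/- arrays. The groups did not overlap, and the change of 0.61 ± 0.13 (SE) passed over all genes (limma adjusted p = 0.0108). The other probe set, 1416157_at, moved the opposite way. It read 7.79, 7.21 and 7.26 on Des-/- and 5.998, 6.46 and 6.27 on TNFαDes-/- arrays, again with no overlap. That was a fall of 2.27-fold (log2 change -1.18 ± 0.18, limma adjusted p = 0.00437 over all probe sets). Within each array the second probe set differed from the main one by -3.17 to -2.98 on the log2 scale in Des-/- hearts and by -5.17 to -4.60 in TNFαDes-/- hearts. The mean of both probe sets was -0.28 and did not pass (limma adjusted p = 0.191), so the direction of Vcl depends on the probe set. In the fit over genes the rise was also lost after quantile normalization (0.24, limma adjusted p = 0.0646) and without TNFαDes-/- replicate 1 (0.59, adjusted p = 0.0521). In the fit over all probe sets the rise passed in 3 of 8 settings and the fall of 1416157_at in 8 of 8. The rise was lost there after quantile normalization and without Des-/- replicate 2 or 3 or TNFαDes-/- replicate 1 or 3 (adjusted p up to 0.0876).

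The talins join the tails of integrins to vinculin and actin; Tln2 is the form that prevails in mature heart muscle and Tln1 the form of most other cells. The main Tln1 probe set 1448402_at read 10.36, 9.59 and 9.68 on Des-/- and 10.02, 9.95 and 9.99 on TNFαDes-/- arrays. Des-/- replicate 1 lay above and the other Des-/- arrays below the whole TNFαDes-/- group, and the change was 0.11 ± 0.19 (limma adjusted p = 0.745). Without that array it was 0.35 and passed (limma adjusted p = 0.0197). A dimmer Tln1 probe set, 1436042_at, read 7.34, 7.18 and 7.05 on Des-/- and 7.95, 8.11 and 8.33 on TNFαDes-/- arrays. It rose by 0.94 ± 0.13 with no overlap (limma adjusted p = 0.00265 over all probe sets), and the rise passed in all 8 settings tried. The third, 1457782_at, ranged from 5.19 to 5.80 in Des-/- and from 5.27 to 5.72 in TNFαDes-/- hearts and did not pass.

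Tln2 leaned the other way. Its main probe set 1429111_at read 9.19, 8.83 and 8.82 on Des-/- and 8.80, 8.79 and 8.72 on TNFαDes-/- arrays. The groups were separated by a margin smaller than the spread within Des-/-, and the change of -0.18 ± 0.12 did not pass (limma adjusted p = 0.348), while after quantile normalization it was -0.37 and passed (limma adjusted p = 0.0158). The probe set 1435700_at read 7.25, 7.17 and 7.18 on Des-/- and 6.89, 6.46 and 6.82 on TNFαDes-/- arrays. It fell by 0.48 on the log2 scale (SE 0.13, limma adjusted p = 0.039 over all probe sets), a call that was lost when any of the 6 arrays was left out (changes of -0.56 to -0.35, adjusted p up to 0.108). The third, 1429112_at, lay between 5.04 and 5.27 on all arrays and changed by -0.03.

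Itgb1 encodes the beta chain shared by many integrins, and Itga7 the alpha chain with which it forms the laminin receptor of muscle. The main Itgb1 probe set 1426918_at read 10.38, 10.05 and 10.004 on Des-/- and 10.14, 10.14 and 9.98 on TNFαDes-/- arrays. The groups overlapped, with a change of -0.06 ± 0.13 (limma adjusted p = 0.792, 95% interval -0.34 to 0.23). Itgb1 had 5 other probe sets and none passed. The bright 1452545_a_at read 10.58, 10.13 and 10.06 on Des-/- and 9.89, 10.09 and 9.85 on TNFαDes-/- arrays, a change of -0.31 ± 0.15. The bright 1427771_x_at changed by -0.0029, and the remaining 3, between 3.14 and 3.65, were dimmer than the median probe set on all 6 arrays, so signal above background was not established for them. After quantile normalization 1426918_at (-0.34) and 1452545_a_at (-0.60) passed as lower. Itga7 read 9.60, 9.41 and 9.54 on Des-/- and 9.35, 9.30 and 9.43 on TNFαDes-/- arrays of its single probe set 1418393_a_at. The groups overlapped by a narrow margin, and the change of -0.16 ± 0.10 did not pass as deposited (limma adjusted p = 0.311) and was -0.39 after quantile normalization, where it passed (adjusted p = 0.0294).

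Dmd encodes dystrophin, whose loss causes Duchenne muscular dystrophy. The main Dmd probe set 1417307_at read 8.74, 8.70 and 8.59 on Des-/- and 8.68, 8.57 and 8.68 on TNFαDes-/- arrays, with overlapping groups and a change of -0.03 ± 0.10 (limma adjusted p = 0.847, 95% interval -0.25 to 0.19). Its other probe sets spread more within Des-/-, where replicate 1 lay far above the rest. The probe set 1443315_at read 7.29 on that array against 6.34 and 6.16 on the other Des-/- arrays and 6.95, 6.70 and 6.95 on the TNFαDes-/- arrays. Its change was 0.27 ± 0.26, and 0.61 without Des-/- replicate 1, which passed (limma adjusted p = 0.00875 over all probe sets). Likewise 1448665_at read 8.61 on Des-/- replicate 1, 7.96 and 7.82 on the others and 7.79 to 8.30 in TNFαDes-/- hearts, and did not pass. The dim 1430320_at read 4.45 on that array and 3.45 to 3.61 on the other 5 arrays.

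Utrn encodes utrophin, the close relative of dystrophin that can take its place in the membrane complex. The main Utrn probe set 1452222_at read 9.64, 9.17 and 9.17 on Des-/- and 9.68, 9.42 and 9.51 on TNFαDes-/- arrays. The groups overlapped through Des-/- replicate 1, and the change of 0.21 ± 0.15 did not pass (limma adjusted p = 0.372), though without that array it was 0.37 and passed (adjusted p = 0.0327). The probe set 1427569_a_at fell. It read 7.07, 7.26 and 7.14 on Des-/- and 5.69, 6.21 and 5.82 on TNFαDes-/- arrays, which is 2.38-fold lower (log2 change -1.25 ± 0.14, limma adjusted p = 0.00126 over all probe sets). Its fall passed in all 8 settings tried. The mean of all 3 Utrn probe sets was -0.24 (limma adjusted p = 0.0752). The third, 1426892_at, lay at 4.44 to 5.04, near or below the array medians, and changed by 0.31 ± 0.12 without passing.

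**Figure D2:**
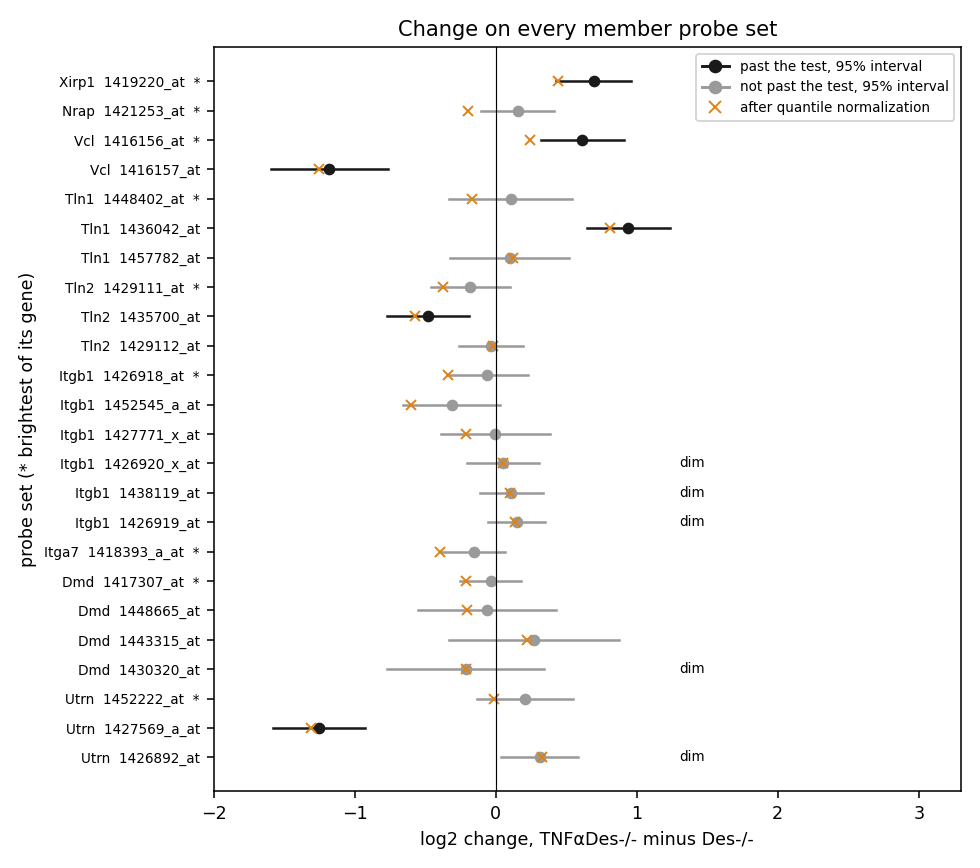
Log2 change from Des-/- to TNFαDes-/- (horizontal axis, n = 3 arrays a group) on each of the 24 probe sets of the member genes (vertical axis), with 95% intervals from the limma fit over all probe sets, drawn black where the adjusted p was below 0.05; orange crosses give the change after quantile normalization, asterisks mark main probe sets, and "dim" marks those not above the array median on every array. Black intervals lie on both sides of 0, with Vcl on both.

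Counted by probe set, 6 of the 24 passed, 3 higher and 3 lower, against 14.9% of all probe sets. That share is not matched for level, and 19 of the 24 lay above the array median on all 6 arrays. Of the 3 that were lower none was the main probe set of its gene, and Vcl alone of the 6 genes with several probe sets had calls in both directions. The within-array difference from the main probe set was taken for each of the 15 other probe sets, and its share over all genes was not computed. It separated the groups for Vcl and for 1427569_a_at of Utrn (-2.57 to -1.90 in Des-/-, -3.99 to -3.21 in TNFαDes-/-). It also did so for 1436042_at of Tln1 (-3.03 to -2.41, then -2.06 to -1.66) and for 1452545_a_at of Itgb1 (0.06 to 0.20, then -0.26 to -0.04). For all the others the groups overlapped in this difference. Such a difference is free of a constant scale of the array but not of one that varies with level, as at the bright end here. A measure of RNA integrity and labelling moved with the group beside it: the log2 ratio of 3′ to 5′ control probe sets was -0.012 ± 0.031 for Gapdh in Des-/- and 0.322 ± 0.036 in TNFαDes-/- hearts, and 0.48 ± 0.08 against 0.73 ± 0.10 for Actb (SD, n = 3). Its part in the differences between probe sets was not tested, and the sources used here do not place the probe sets within their transcripts.

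**Figure D3:**
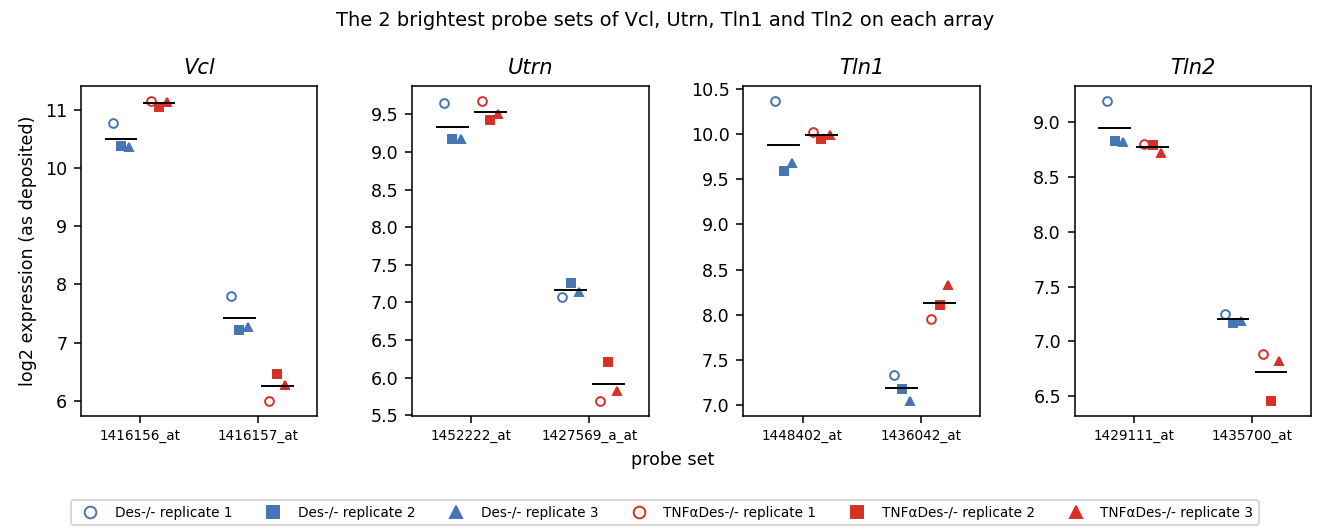
Log2 expression as deposited (vertical axis) of the 2 brightest probe sets of Vcl, Utrn, Tln1 and Tln2 (horizontal axis) on each Des-/- (blue) and TNFαDes-/- (red) array, with group means as lines; these genes were picked because a probe set other than the main one passed the test. In Vcl the main probe set is higher and the other lower on all TNFαDes-/- arrays, and in Utrn the difference lies in the dimmer probe set, at 5.69 to 6.21 against 7.07 to 7.26.

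Changes of related members were set against each other within arrays, on their main probe sets only. With 3 arrays a group an exact two-sided permutation test over the 20 labellings cannot give a p below 0.1. Of 4 pairs tested, Vcl against Tln1 gave that smallest value. Their log2 difference was 0.41 to 0.79 in Des-/- and 1.12 to 1.15 in TNFαDes-/- hearts, a shift of 0.51 (exact p = 0.1, 0.4 adjusted over the pairs). The direction of this shift depends on the probe sets, since 1416157_at of Vcl changed by -1.18 and 1436042_at and 1457782_at of Tln1 by 0.94 and 0.10. Tln1 against Tln2 shifted by 0.29 (exact p = 0.2, from 0.93 ± 0.21 to 1.22 ± 0.06, SD, n = 3). Dmd against Utrn shifted by -0.24 (exact p = 0.3) and Itgb1 against Itga7 by 0.10 (exact p = 0.5), and the groups overlapped in each of these 3 pairs.

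Des-/- replicate 1 stood above the other Des-/- arrays for nearly every member. Of the 19 member probe sets above the array median on all 6 arrays, it was the highest of its group in 18, against 63.4% of all 20308 such probe sets. The exception was 1427569_a_at of Utrn. The median excess of replicate 1 over the mean of replicates 2 and 3 was 0.37 in the member probe sets and 0.17 in all. These shares are not matched for level. The main member probe sets were brighter than 82.8 to 98.1% of genes, and no share was computed for probe sets that bright. The 99th percentile was also higher on replicate 1 (12.27) than on replicates 2 and 3 (11.75 and 11.69), so an excess at high level is not particular to the members. The SD of the log2 difference between Des-/- replicates 2 and 3 over all genes was 0.157, against 0.336 and 0.341 for each with replicate 1. Without that array the main probe set of Vcl changed by 0.75, Nrap by 0.26, Tln2 by -0.058, Itgb1 by 0.06, Itga7 by -0.12 and Dmd by -0.0024, and of these Vcl passed.

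Among the partner genes with the largest calls in each list, Zyx, Enah, Srf, Krt8 and Krt18 passed as higher under every setting that measured them. Lamb3, Krt19 and Sptb passed as lower under every such setting. The other partners were not followed gene by gene through all settings. Of 92 measured genes in 6 lists, drawn up by known function with members left out, 35 passed (38.0%), 28 higher and 7 lower, against 21.3% of all genes. The partners were mostly bright, with 85 of 92 above the array median on all 6 arrays, and their share is near the 37.9% of genes in the members' range of level, of whose calls 85.9% were higher. After quantile normalization 30 passed, 16 higher and 14 lower, and the median of the 92 went from 0.20 to -0.02. The difference between lists was not tested.

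In the dystrophin complex 2 of 14 genes rose and 1 fell (median 0.04), while quantile normalization left 1 higher and 3 lower (median -0.12). Dag1, the dystroglycan that joins dystrophin to laminin, read 11.46, 11.05 and 10.99 on Des-/- and 11.68, 11.68 and 11.67 on TNFαDes-/- arrays, a rise of 0.51 ± 0.13 (SE; limma adjusted p = 0.0279) that passed in 8 of 15 alternatives. It was 0.15 after quantile normalization and 0.22 as the mean over its probe sets, and was lost without each array other than Des-/- replicate 1. Cav3, the caveolin of muscle, rose by 0.46 ± 0.10 (adjusted p = 0.0145) and passed in 11 of 15, with the call lost without Des-/- replicate 2 or 3 or TNFαDes-/- replicate 1 or 3. Nos1, the neuronal nitric oxide synthase, fell by 0.37 on the log2 scale (adjusted p = 0.0226) and passed in 10 of 15. Its call was lost without the same arrays and as the mean over its probe sets (-0.23, adjusted p = 0.15). The sarcoglycans Sgca, Sgcb, Sgcd and Sgce changed by -0.03, 0.13, 0.22 and 0.10 and did not pass.

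Of 13 other integrin chains 4 rose and 0 fell (median 0.11), while quantile normalization left 2 higher, with Itga9 and Itgb5 no longer passing. Itga1, an alpha chain of a collagen receptor, rose by 0.85 ± 0.20 (SE; limma adjusted p = 0.0188), but averaged 0.11 over its probe sets and was lost without Des-/- replicate 2 or TNFαDes-/- replicate 1 or 3. Itga5, the alpha chain of the fibronectin receptor, rose by 0.79 ± 0.12 (adjusted p = 0.00263) on a probe set named _s_at, which can read several transcripts, and stood at -0.32 with such probe sets left out. Of 7 laminin chains, the matrix ligands of these receptors, 1 rose and 1 fell, while quantile normalization left 1 higher and 2 lower (median -0.29). Lamb3 went from 7.50 ± 0.06 to 6.39 ± 0.08 (SD, n = 3; limma adjusted p = 0.0002), a fall that passed in all 14 alternatives. Lamb1 rose by 0.54 ± 0.11, also on a probe set named _s_at. It did not pass when all its probe sets were averaged (-0.0032), or with probe sets named _a_at, _s_at or _x_at left out (0.097).

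Of 24 adaptors that bind integrins or the actin at adhesions, 10 rose and 1 fell (median 0.32), while quantile normalization left 3 higher and 3 lower (median 0.04). Zyx, which encodes the LIM protein zyxin of stressed actin filaments, read 9.79, 9.66 and 9.67 on Des-/- and 10.84, 10.88 and 10.85 on TNFαDes-/- arrays. It rose 2.22-fold (log2 change 1.15 ± 0.09 SE, limma adjusted p = 0.000142) and passed in all 15 alternatives. Sorbs2, a vinculin-binding protein of the Z-disc, rose by 0.86 ± 0.22 (adjusted p = 0.0268) and by 0.49 after quantile normalization. The SD of its Des-/- arrays was 0.51, and the call was lost without each array other than Des-/- replicate 1 (adjusted p from 0.0524 to 0.104). Flna, the filamin of non-muscle cells, fell by 0.53 on the log2 scale with an adjusted p = 0.0498 that passed in 7 of 15 alternatives and, like Sorbs2, was lost without each array other than Des-/- replicate 1.

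Of 21 partners of Xin and Nrap, 6 rose and 2 fell (median 0.26), while quantile normalization left 4 higher and 2 lower. Enah, which encodes the actin regulator Mena that binds Xin, read 10.64, 9.99 and 10.07 on Des-/- and 11.52, 11.37 and 11.39 on TNFαDes-/- arrays, a rise of 2.28-fold (log2 change 1.19 ± 0.17 SE, limma adjusted p = 0.00181). Srf, which encodes the serum response factor, went from 8.06 ± 0.10 to 9.04 ± 0.04 (SD, n = 3; adjusted p = 0.00039). Both passed in all 15 alternatives. Mef2c, a transcription factor that binds MEF2 boxes, fell by 0.65 on the log2 scale (SE 0.12, adjusted p = 0.00658), with an adjusted p = 0.0532 as the mean over its probe sets. Tjp1, the scaffold ZO-1 of cell junctions, fell by 0.81 on the log2 scale (SE 0.21, adjusted p = 0.0241), a call lost when any TNFαDes-/- array was left out (adjusted p from 0.0569 to 0.0692). Mef2a changed by 0.08, and the coactivators of Srf, Mrtfa and Mrtfb, by 0.13 and 0.14, and these did not pass.

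Of 16 filament and linker genes 6 rose and 2 fell (median 0.33), while quantile normalization left 5 higher and 5 lower (median 0.04). Of the 6 rises 1 was Des, the gene deleted in both genotypes (0.39, limma adjusted p = 0.0219), which did not pass after quantile normalization (0.22, adjusted p = 0.199). Krt18 and Krt8, keratins of simple epithelia, rose by 4.70 ± 0.10 and 3.63 ± 0.14 (SE; limma adjusted p = 1.58e-07 and 3.12e-06), far beyond any member of the costamere set, while Krt19 fell by 0.67 and the spectrin gene Sptb by 0.48 on the log2 scale. All 4 passed in every alternative that measured them.

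**Figure D4:**
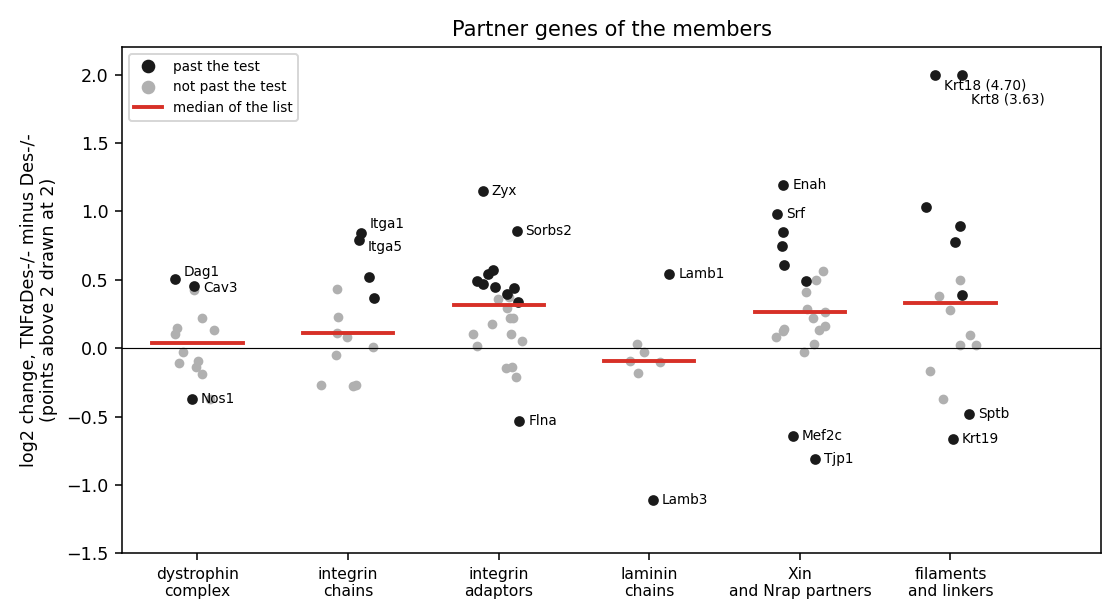
Log2 change from Des-/- to TNFαDes-/- (vertical axis, n = 3 arrays a group) of each measured partner gene in 6 lists (horizontal axis); black points passed the test, grey points did not, red lines are list medians, and horizontal scatter within a list has no meaning. Named points are the largest rises and falls among the genes of each list that passed the test, up to 2 of each. Krt18 (4.70) and Krt8 (3.63) are drawn at 2, and the medians run from -0.10 in laminin chains to 0.33 in filaments and linkers.

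The 3 genes whose 6 values lay nearest to those of Xirp1, after subtraction of each gene's Des-/- mean, were Phlda3, Slc6a8 and Arf1, with root-mean-square distances of 0.0411, 0.0425 and 0.0436 on the log2 scale. Phlda3 read 8.10, 7.72 and 7.82 on Des-/- and 8.54, 8.58 and 8.51 on TNFαDes-/- arrays. Since nearness was measured over these same values, their likeness to Xirp1 is fixed by the choice. Slc6a8 changed by 0.65, and by 0.29 without passing after quantile normalization (limma adjusted p = 0.0685). Arf1 changed by 0.69, and by -0.032 with probe sets named _a_at, _s_at or _x_at left out.

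Whole hearts hold other cells that express Vcl, Tln1, Itgb1 and Utrn, and fewer cells of a type cannot be told apart here from less RNA per cell. Marker counts moved with the scaling of arrays as the members' did, and stand beside 15.2% of all genes higher and 6.05% lower as deposited. Of 8 cardiomyocyte markers (Myh6, Actc1, Tnnt2 and others), all above the array median on every array, 0 passed by limma as deposited (3 at an unadjusted p below 0.05), and 2, Tnni3 and Ryr2, were lower after quantile normalization. Their summed linear signal was 109396 to 179221 in Des-/- and 165783 to 171410 in TNFαDes-/- hearts. Of 6 endothelial markers 3 fell (Pecam1, Tie1 and Tek), and 4 after quantile normalization, with summed signals of 2240 to 2927 and 1938 to 1974. Of 6 macrophage markers 4 rose and 1, Cd68, fell on either scale, with summed signals of 2650 to 3525 and 4139 to 4303. Of 6 fibroblast markers 1, Dcn, rose (13785 to 21604 and 21485 to 21897), and after quantile normalization 1 was higher and 3 were lower. Of 6 smooth muscle and pericyte markers 1, Myh11, fell (5330 to 8039 and 5518 to 5952), and 3 were lower after quantile normalization. Of 3 erythrocyte markers 1, Alas2, fell (215 to 342 and 91.7 to 103). Of 6 skeletal muscle markers 1, Tnnt3, fell, at means of 4.39 and 3.99 that lie below the array medians. Ckm, which heart muscle also expresses, stood at means of 13.36 and 13.30, and the other 5 at means of 5.10 or less. After quantile normalization 2 of the 6 were lower, Tnnt3 (-0.37) and Ckm (-0.39, limma adjusted p = 0.0131). The part of other cells in the members' values was not tested.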

How the data were processed

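The authors deposited 1 table of log2 values for 6 one-colour Affymetrix arrays, made with RMA, a tool named without a version in the submitters' processing notes. Per the labels, nothing records whether quantile normalization spanned all 6 arrays. The deposited values did not share 1 distribution over the 6 arrays, with medians of 5.02 to 5.08 but 99th percentiles of 11.69 to 12.31. Groups and replicate numbers came from the sample titles. Of 45101 probe sets 64 controls were left out, and 34945 of the others had 1 symbol in the platform annotation, 932 several and 9160 none. Both genotypes entered 1 linear model of the deposited log2 values in limma 3.58.1 (R 4.3.3), fitted with lmFit and moderated with eBayes, over the main probe set of 18193 genes with Benjamini-Hochberg adjustment and no filter, and again over 45037 probe sets for single probe sets. Text values in the form a ± b are SE for changes and SD for group means. The named partners were the 2 largest rises and 2 largest falls past the test in each list; other genes named beside them, such as the sarcoglycans, Mef2a, Mrtfa and Mrtfb, were added with their values in view. The members and lists were chosen with earlier results of these data known. Alternatives covered array scaling, replicate block, dim and cross-hybridising probe sets, the mean of probe sets, the variance model, array weights and each array left out. The number of arrays limits the precision.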

Additional observations from a re-analysis of the deposited data

How the results depend on the processing

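The count of members past the test was 2, and became 4 after quantile normalization, 1 with the mean of all probe sets, 5 with array weights and 1 to 4 when an array was left out (4 without Des-/- replicate 1, 1 without TNFαDes-/- replicate 1). The 35 partner genes became 60 with array weights and 18 to 53 with an array left out, and the 3869 genes in all became 8414 with array weights and 2068 to 5814 with an array left out, the highest each time without Des-/- replicate 1. With the replicate number as a block (replicate block) 4278 genes, 2 members and 37 partners passed; deviations of same-numbered arrays correlated at 0.25, 0.31 and -0.30, so the number was not taken as a pairing. Signs turned in 28 cases, 24 of them in values that did not pass in the main fit. The other 4, Vcl, Itga5, Lamb1 and Arf1, passed in the main fit but not where the sign turned. A gene and its main probe set count as separate cases here, so some cases repeat the same values. After quantile normalization Nrap stood at -0.20, Tln1 at -0.17 and Utrn at -0.013. With the mean of all probe sets Vcl stood at -0.28, Utrn at -0.24 and Lamb1 at -0.0032. Without probe sets named _a_at, _s_at or _x_at Itga5 stood at -0.32 and Arf1 at -0.032. With array weights Itgb1 stood at 0.051 and Dmd at 0.0051. With an array left out, Itgb1 ranged from -0.13 to 0.06, Tln1 from -0.037 to 0.35 and Dmd from -0.075 to 0.0037. The probe sets that turned with an array left out were 1427771_x_at (-0.12 to 0.20) and 1426920_x_at (-0.032 to 0.11) of Itgb1, 1448665_at (-0.22 to 0.17) and 1430320_at (-0.39 to 0.11) of Dmd, 1457782_at (-0.014 to 0.29) of Tln1 and 1429112_at (-0.094 to 0.023) of Tln2. The causes were not tested.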
